A study of Homo sapiens with 36 samples.

Results

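The 7 genes described here are the aryl hydrocarbon receptor AHR, its partner ARNT, the cytochrome P450 genes CYP1A1, CYP1A2 and CYP1B1, and the feedback genes AHRR and TIPARP. They were chosen by name as the core of one signalling pathway, and all 7 were found by their Ensembl gene identifiers among the 18919 genes of the expression table. The study exposed HepG2 cells, a human hepatocellular carcinoma line, to acetaminophen (APAP), the pain and fever drug whose overdose injures the liver, and measured mRNA on Affymetrix arrays. There were 12 groups: 10 mM APAP, 0.5 mM APAP and 0.5% (v/v) DMSO, the solvent control, each at 12, 24, 48 and 72 h. Each group had 3 arrays, which the series' design text calls biological replicates, so 36 arrays were used. All groups shared the same cells and serum-containing medium, which was replaced with fresh medium at the start of exposure. The labels leave it unclear if cultures given APAP received DMSO too, so effects of the drug and of a difference in solvent cannot be told apart. The sample titles give the 4 times, while the extraction text states 24 h for every sample, and the titles were followed.

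AHR is a transcription factor that is held in the cytoplasm by chaperones until a small molecule, such as a dioxin, a polycyclic aromatic hydrocarbon or a tryptophan product, binds to it. It then enters the nucleus, pairs with ARNT and binds short DNA elements with the core GCGTG near its target genes. CYP1A1 is its best known target and, with CYP1A2 and CYP1B1, encodes a monooxygenase that oxidises aromatic compounds; CYP1A2 is mainly a liver enzyme and can also oxidise acetaminophen. AHRR, a repressor that competes with AHR for ARNT, and TIPARP, an ADP-ribosyltransferase that limits AHR activity, are induced by AHR in many cells and act back on it.

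CYP1A1 (row ENSG00000140465_at) lies on chromosome 15 (GRCh38.p14, chr15:74719542-74725528) and CYP1A2 (ENSG00000140505_at) next to it (chr15:74748845-74756607), in the opposite orientation, with start sites 23317 bases apart. The other genes lie on other chromosomes: CYP1B1 (ENSG00000138061_at) at chr2:38067509-38076151, AHR (ENSG00000106546_at) at chr7:17298652-17346147, AHRR (ENSG00000063438_at) at chr5:321714-438285, TIPARP (ENSG00000163659_at) at chr3:156674590-156706770 and ARNT (ENSG00000143437_at) at chr1:150809713-150876599. The 250 bases before the start site are printed for the pair of neighbouring genes, of which one moved and one did not pass any test below, and for the first start site of TIPARP, which moved at 12 and 72 h. The sequences are from RefSeq (GRCh38.p14), read 5′ to 3′ on the gene's strand, and capitals mark GCGTG or its reverse complement CACGC. The windows are chr15:74725529-74725778 on the minus strand for CYP1A1, chr15:74748595-74748844 on the plus strand for CYP1A2, and chr3:156674340-156674589 on the plus strand for TIPARP.
CYP1A1: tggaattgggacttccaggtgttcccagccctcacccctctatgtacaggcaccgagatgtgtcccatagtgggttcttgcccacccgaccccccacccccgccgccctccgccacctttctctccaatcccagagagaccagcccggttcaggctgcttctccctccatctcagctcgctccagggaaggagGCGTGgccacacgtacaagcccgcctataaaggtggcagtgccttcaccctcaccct
CYP1A2: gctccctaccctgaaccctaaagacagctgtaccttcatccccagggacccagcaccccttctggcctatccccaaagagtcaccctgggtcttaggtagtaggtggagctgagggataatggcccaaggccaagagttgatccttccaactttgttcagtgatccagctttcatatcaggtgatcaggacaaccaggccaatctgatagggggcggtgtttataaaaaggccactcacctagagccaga
TIPARP: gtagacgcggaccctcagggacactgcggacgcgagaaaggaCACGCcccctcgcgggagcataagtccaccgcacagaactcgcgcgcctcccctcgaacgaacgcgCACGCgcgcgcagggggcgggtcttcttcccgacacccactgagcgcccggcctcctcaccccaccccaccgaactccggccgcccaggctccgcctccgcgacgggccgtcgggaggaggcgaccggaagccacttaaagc

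The CYP1A1 window held 1 GCGTG, from 57 to 53 bases before the start, and the CYP1A2 window held 0. The TIPARP window held 2 on the other strand, from 208 to 204 and from 142 to 138 bases before the start. A search for TATAAA on the gene's own strand found 1 match in CYP1A1, from 32 to 27 bases before the start, and 1 in CYP1A2, from 29 to 24 bases before it; neither overlapped a GCGTG. The windows of AHR and ARNT held 0 GCGTG, the 2 further TIPARP start sites held 0, and the AHRR start sites held 1 and 2. CYP1B1 had no window in the sequences used here and was not searched. GCGTG on either strand is common: 32.2% of 35116 such windows hold it, and 10.7% hold TATAAA on either strand. The share with TATAAA on the gene's own strand was not counted. These are matches of letters in a short window and describe neither binding nor the elements farther upstream.

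Levels are RMA values, which are log2 of a normalised probe set intensity, so a difference of 1 is a doubling. A level can be followed across arrays for 1 gene but not set against the level of another gene. The arrays were alike: any 2 arrays of a group correlated at 0.991 or more over all genes, and array medians ran from 3.32 to 3.46. The 3′ to 5′ difference of the actin control rows, a sign of RNA or cRNA length, was above 3 on 2 arrays of 0.5 mM APAP (replicate 2 of 48 h and replicate 3 of 72 h), against 1.49 to 2.45 on the other arrays, and the dap spike-in rows were weak in 6 arrays. Of these, 4 were 10 mM arrays (replicate 1 of 12, 48 and 72 h, and replicate 2 of 24 h), 2 were DMSO arrays (replicate 1 of 24 and 48 h) and 0 were 0.5 mM arrays, so the weak arrays were unevenly spread over the groups. The table has no detection call. As a stand-in for background, 3 control rows for a bacterial tryptophan gene read 1.87 to 2.51 across the arrays. AHR, TIPARP and ARNT lay above that range on all 36 arrays, and CYP1B1 lay above it on 0. CYP1A2 was above it on 8 arrays and AHRR on 13. CYP1A1 was above it on 12 of 12 arrays at 10 mM, 7 of 12 at 0.5 mM and 6 of 12 in DMSO, so its control level was at or near this background. Each array reports RNA from a whole culture, and fewer cells of a kind and less RNA per cell cannot be told apart.

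**Figure D1:**
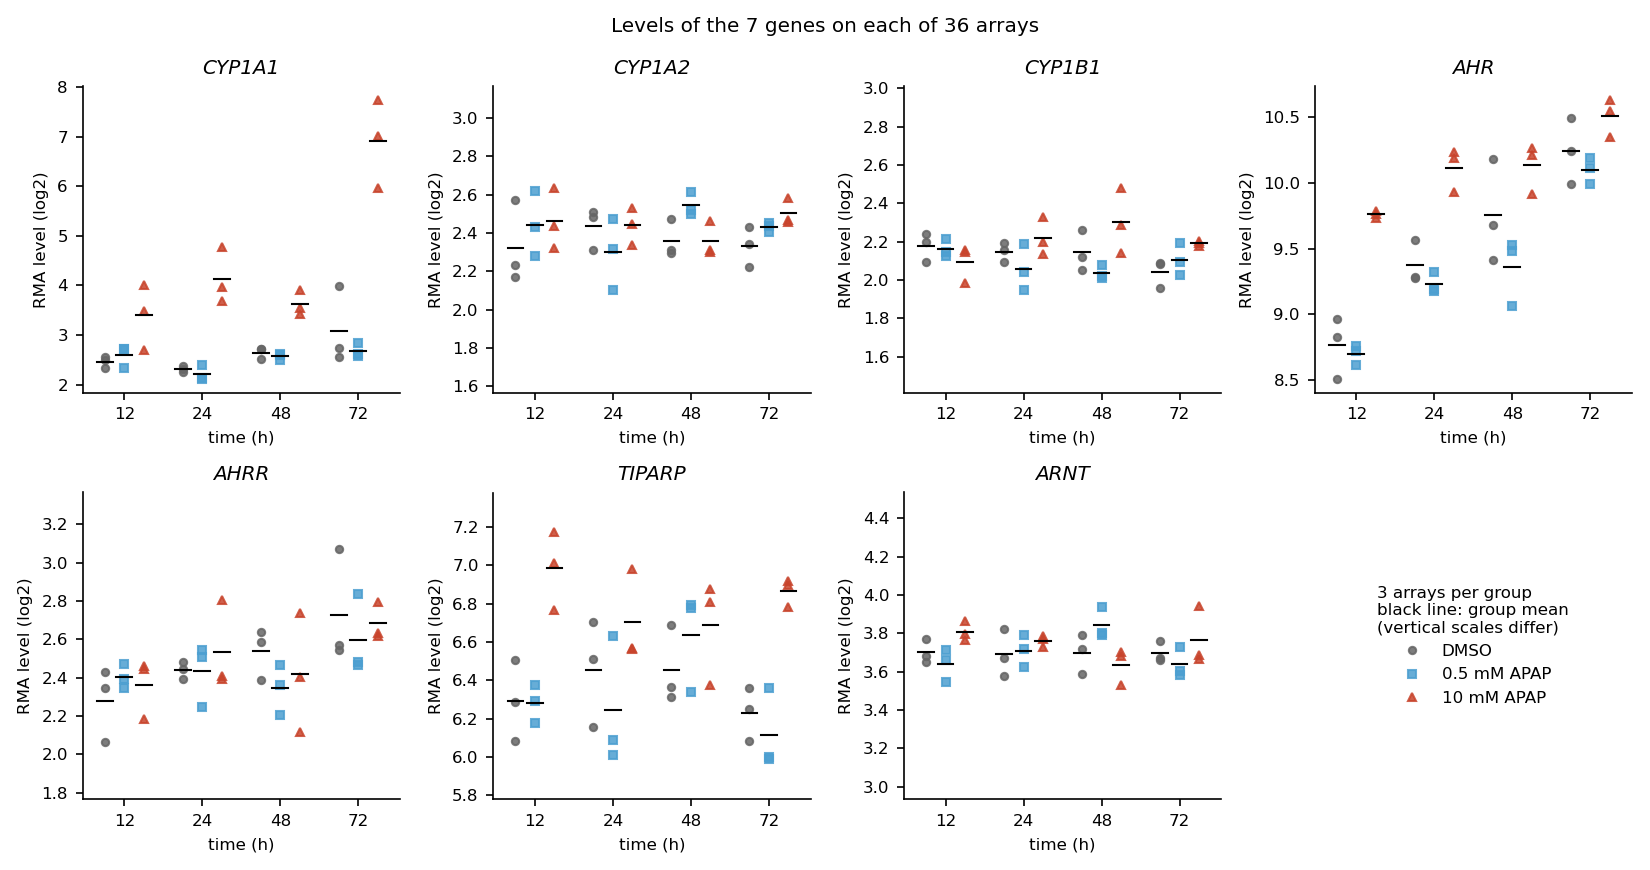
RMA level (log2) of each of the 7 genes on all 36 arrays, by time (h) and treatment, with 3 points per group and a black line at each group mean; vertical scales differ between genes. CYP1A1 is raised at 10 mM APAP and most so at 72 h, AHR is raised at 10 mM most clearly at 12 and 24 h, and CYP1A2, CYP1B1, AHRR and ARNT cover 0.53, 0.53, 1.01 and 0.41 log2 units over all arrays.

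The genes differed in how far they ranged. Over the 12 group means CYP1A1 spanned 4.69 log2 units, more than all but 91 (0.481%) of the 18919 genes, and AHR spanned 1.81, a span passed by 7.59% of genes. TIPARP spanned 0.87, passed by 30%. The span was 0.45 for AHRR, 0.27 for CYP1B1, 0.25 for CYP1A2 and 0.21 for ARNT, against a median of 0.51 over all genes.

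High dose APAP was compared with DMSO within each time, to ask which of the genes responded and when. At 10 mM, CYP1A1 mRNA was higher than in DMSO at all 4 times, 3.53-fold at 24 h and 14.1-fold at 72 h. AHR mRNA was higher at 12 and 24 h, 1.99-fold and 1.67-fold, and TIPARP mRNA was higher at 12 and 72 h, 1.62-fold and 1.55-fold. ARNT, CYP1A2, CYP1B1 and AHRR did not pass the test at any time. Passing means a limma adjusted p under 0.05 after Benjamini-Hochberg adjustment over all 18919 genes. All calls among the 7 genes were of higher levels, and they numbered 3, 2, 1 and 2 at 12, 24, 48 and 72 h. Over all genes 14.2%, 15.3%, 16.3% and 17% were called higher at those times (26.6%, 29%, 31.2% and 33.4% in either direction). The 10 mM arrays stood above the DMSO arrays without overlap for 3, 2, 1 and 4 of the 7 genes, and for 22.3%, 20.5%, 18.7% and 21% of all genes. The median difference of the 7 genes was 0.14, 0.10, 0.16 and 0.17 log2 units, against 0.01, -0.01, 0.01 and -0.01 over all genes.

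The receptor gene AHR was raised early. At 12 h the 3 arrays at 10 mM read 9.77, 9.73 and 9.78, against 8.83, 8.51 and 8.96 in DMSO. Every array at 10 mM thus stood above every DMSO array, and the 10 mM arrays lay close together. The difference was 0.99 ± 0.15 log2 units (SE; adjusted p = 7.8e-06). At 24 h the levels were 10.19, 9.93 and 10.23 at 10 mM and 9.57, 9.29 and 9.28 in DMSO, again without overlap, a difference of 0.74 ± 0.15 (adjusted p = 3.4e-04). The mean difference was smaller at the later times, at which the control level was higher.

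At 48 h AHR read 10.21, 9.92 and 10.27 at 10 mM and 10.18, 9.41 and 9.68 in DMSO. DMSO replicate 1 lay among the treated arrays and the groups overlapped. The difference of 0.38 log2 units (95% interval 0.06 to 0.69) did not pass the test, with an adjusted p of 0.0641. With the replicate number as a block (same-numbered arrays deviated together at this time), it passed with an adjusted p of 0.0124, and without DMSO replicate 1 the difference was 0.59 with an adjusted p of 0.00297. At 72 h the levels were 10.35, 10.63 and 10.55 at 10 mM and 9.99, 10.24 and 10.49 in DMSO, and the difference of 0.27 (95% interval -0.05 to 0.58, adjusted p = 0.203) did not pass. DMSO replicate 3 was above 1 of the treated arrays at that time.

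ARNT, the partner that AHR needs to bind DNA and that also serves hypoxia signalling, stayed within narrow limits. Its levels ran from 3.53 to 3.94 over the 36 arrays, with a pooled SD within groups of 0.089. At 10 mM it differed from DMSO by 0.11, 0.07, -0.06 and 0.07 at the 4 times, with adjusted p of 0.403 or more. The 95% intervals reached from -0.23 at the lowest to 0.28 at the highest.

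CYP1A1 was the 1 member called at all 4 times and the 1 member whose 10 mM arrays stood above the DMSO arrays at each of them. Of all genes, 1177 (6.22%) were called higher at all 4 times and 1435 (7.58%) had no overlap in that direction at all 4. At 12 h its 3 arrays read 3.49, 4.01 and 2.70 at 10 mM and 2.34, 2.55 and 2.49 in DMSO. The spread at 10 mM was wide, and replicate 3 was only just above the controls. The difference was 0.94 ± 0.33 log2 units (SE; adjusted p = 0.035). That call was lost without 10 mM replicate 1 (adjusted p = 0.0919) or replicate 2 (0.247), and without any one of the 3 DMSO arrays (0.0625 to 0.102); the difference without 10 mM replicate 2 was 0.63.

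At 24 h CYP1A1 read 3.68, 4.77 and 3.96 at 10 mM and 2.31, 2.38 and 2.26 in DMSO. All 3 control arrays were within the range of the bacterial control rows, and the treated arrays were clear of it. The difference was 1.82 log2 units (95% interval 1.14 to 2.50, adjusted p = 6.5e-05), passed by 120 genes. At 48 h the levels were 3.54, 3.91 and 3.42 against 2.51, 2.71 and 2.72, a difference of 0.98 (0.29 to 1.66, adjusted p = 0.0236). At 48 h the call was lost without 10 mM replicate 2 (adjusted p = 0.103) or DMSO replicate 1 (0.0736), and with array weights (0.0738).

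At 72 h CYP1A1 read 7.02, 7.74 and 5.96 at 10 mM and 3.99, 2.73 and 2.55 in DMSO. The lowest treated array was still well above the highest control, DMSO replicate 1, which was itself apart from the other control arrays. The difference was 3.82 log2 units (95% interval 3.14 to 4.50), or 14.1-fold (8.80-fold to 22.6-fold), with an adjusted p of 9.8e-11. Only 69 genes (0.365%) rose more at that time. Leaving out any one of the 36 arrays gave differences from 3.40 to 4.29, and without DMSO replicate 1 the difference was 4.27. These folds are ratios of array levels whose lower end is near background.

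CYP1A2 and CYP1B1, the other enzymes of the family, were not called at any time. CYP1A2 lay between 2.10 and 2.63 on all 36 arrays and CYP1B1 between 1.95 and 2.48. Against DMSO, 10 mM CYP1A2 differed by 0.14, 0.01, 0.00 and 0.17 log2 units at the 4 times, and the upper limits of the 95% intervals were 0.36, 0.22, 0.22 and 0.39. CYP1B1 differed by -0.08, 0.07, 0.16 and 0.15, with upper limits of 0.09, 0.24, 0.33 and 0.32. At 72 h every 10 mM array of both genes was above every DMSO array, as for 21% of all genes, but with an adjusted p of 0.256 for CYP1A2 and 0.191 for CYP1B1. At 48 h CYP1B1 passed without 10 mM replicate 3, with a difference of 0.24 and an adjusted p of 0.0395. Both genes read in or near the range of the bacterial control rows, where a change in mRNA may not be detectable. CYP1A1 thus passed at 72 h and its chromosomal neighbour CYP1A2 did not; the difference between their responses was not tested.

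Of the feedback genes, TIPARP was called at 12 and 72 h and AHRR at no time; AHRR reads near background and the difference between their responses was not tested. TIPARP read 6.77, 7.02 and 7.17 at 10 mM and 6.29, 6.08 and 6.51 in DMSO at 12 h, without overlap. The difference was 0.69 ± 0.17 log2 units (SE; adjusted p = 0.00244). At 72 h it read 6.78, 6.92 and 6.90 against 6.36, 6.09 and 6.25, a difference of 0.64 ± 0.17 (adjusted p = 0.00387). In between, the groups overlapped. At 24 h the levels were 6.98, 6.56 and 6.57 against 6.51, 6.16 and 6.70, a difference of 0.25 with an adjusted p of 0.344. At 48 h they were 6.38, 6.88 and 6.81 against 6.32, 6.37 and 6.69, a difference of 0.23 with an adjusted p of 0.371. The size of the TIPARP difference was not shown to depend on time (moderated F test, adjusted p = 0.324).

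AHRR, the repressor of the pathway, differed from DMSO by 0.09, 0.10, -0.12 and -0.04 log2 units at 10 mM, with adjusted p of 0.64 or more and upper 95% limits of 0.39, 0.40, 0.18 and 0.26. Its levels ran from 2.06 to 3.07, and the highest of all arrays was a DMSO array, 72 h replicate 3. Averaged over the 4 times, 3 of the 7 genes were called higher at 10 mM, where 23.8% of all genes were. They were CYP1A1 at 1.89 ± 0.17 log2 units (SE; adjusted p = 4.0e-11), AHR at 0.59 ± 0.08 (9.8e-08) and TIPARP at 0.45 ± 0.09 (4.7e-05). The other 4 genes had mean differences from 0.00 to 0.08.

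**Figure D2:**
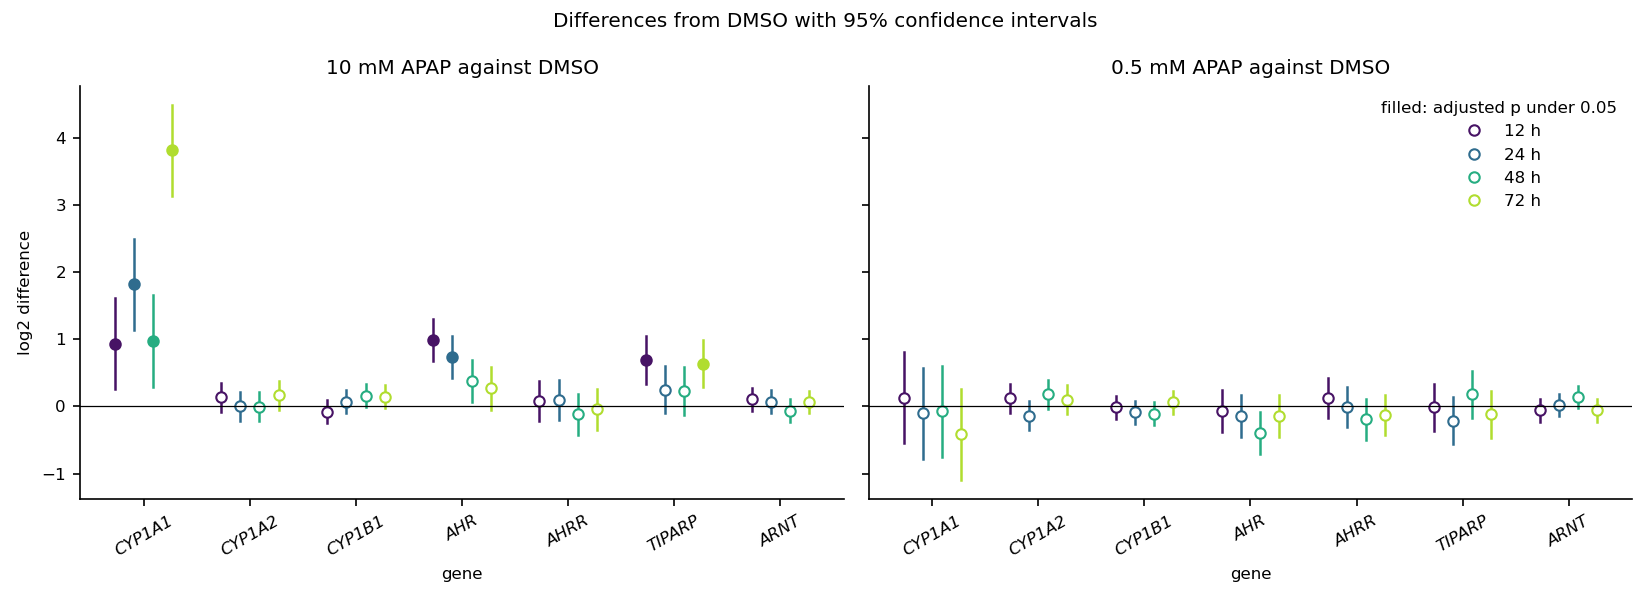
Log2 difference from DMSO (vertical axis) of each gene at 10 mM (left) and 0.5 mM APAP (right), with 95% confidence intervals; colours give the time and filled points have an adjusted p under 0.05. At 10 mM the filled points belong to CYP1A1, AHR and TIPARP, with CYP1A1 at 72 h at 3.82, and at 0.5 mM no point is filled.

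Low dose APAP was compared with DMSO in the same way. At 0.5 mM, 0 of the 7 genes passed the test at any of the 4 times by limma, and unadjusted p was under 0.05 for 1 of them, AHR at 48 h. Over all genes limma called 0.00529%, 0.0159%, 3.45% and 0.761% at 12, 24, 48 and 72 h, and unadjusted p was under 0.05 for 865, 1168, 2729 and 1870 genes. With the replicate number as a block, 1 member, AHR at 48 h, was called, in a fit that called 5.31% of all genes there.

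CYP1A1 at 0.5 mM overlapped the control arrays at each time. Its 12 h arrays read 2.72, 2.72 and 2.33, and its 24 h arrays 2.39, 2.14 and 2.12. Its 48 h arrays read 2.49, 2.61 and 2.63, and its 72 h arrays 2.84, 2.61 and 2.57. None reached 3. The differences were 0.13, -0.10, -0.07 and -0.42 log2 units, and the upper 95% limits of 0.81, 0.58, 0.61 and 0.27 lie under the lower limit of the 10 mM difference at 24 and 72 h. The lower value at 72 h goes with the high DMSO replicate 1 of that time.

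AHR was the member with the largest difference at 0.5 mM among those whose level was clear of background. Its 12 h arrays read 8.72, 8.62 and 8.76, and its 24 h arrays 9.32, 9.19 and 9.18. Its 48 h arrays read 9.53, 9.06 and 9.49, and its 72 h arrays 10.19, 10.11 and 9.99. The level was higher at each later time, as in DMSO. All 4 differences from DMSO were below 0, at -0.07, -0.15, -0.40 and -0.14 log2 units. At 48 h the 95% interval was -0.71 to -0.08 and the adjusted p was 0.186. It became 0.0436 with the replicate block, and without DMSO 48 h replicate 2 the difference was -0.57 with an adjusted p of 0.0375. Without DMSO 48 h replicate 1, the high control array, the difference was -0.19. With both arrays of wide actin difference left out as well it was -0.04 (adjusted p = 0.988), so its size rests on these arrays. Averaged over the 4 times AHR was at -0.19 ± 0.08 (SE; adjusted p = 0.17, and 0.0401 with the block), and at -0.09 (adjusted p = 0.669) without the same 3 arrays. In that mean 6.21% of all genes were called.

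None of the remaining genes was called at 0.5 mM. TIPARP differed from DMSO by -0.01, -0.21, 0.18 and -0.12 log2 units, with adjusted p of 0.737 or more. ARNT differed by -0.06, 0.02, 0.14 and -0.06, and AHRR by 0.12, -0.01, -0.19 and -0.13. CYP1A2 differed by 0.12, -0.14, 0.18 and 0.10 and CYP1B1 by -0.01, -0.09, -0.11 and 0.06. At 48 h all 3 CYP1A2 arrays at 0.5 mM were above the DMSO arrays, as for 8.95% of genes, with an adjusted p of 0.461.

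The doses were also compared with each other, a contrast that shares its 10 mM arrays with the comparison above. At 10 mM against 0.5 mM, 2, 3, 3 and 3 of the 7 genes were called at 12, 24, 48 and 72 h, each of them higher at 10 mM, where 12.4%, 14.8%, 14.3% and 16.3% of all genes were called higher (24.3%, 27.6%, 28.6% and 31.3% in either direction). AHR was called at all 4 times, with differences of 1.06 (adjusted p = 3.4e-06), 0.88 (4.0e-05), 0.77 (2.1e-04) and 0.41 log2 units (0.0417). Its arrays did not overlap between the doses at any time, but the share of all genes without overlap is not given for this contrast. At 72 h the call was lost without 10 mM replicate 2 or 3 or without any one of the 0.5 mM arrays (adjusted p from 0.0501 to 0.146), and with each array centred on its median (0.0837).

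CYP1A1 was 4.23 log2 units higher at 10 mM than at 0.5 mM at 72 h, or 18.8-fold (adjusted p = 1.6e-11), and 6 of the 18919 genes had a larger difference. It was 1.92 higher at 24 h (adjusted p = 3.6e-05) and 1.05 higher at 48 h (0.0164). The 48 h call was lost without 10 mM replicate 2 (adjusted p = 0.0786) or 0.5 mM replicate 1 (0.0506). At 12 h the difference was 0.81 and 1 array of 10 mM, replicate 3, fell within the 0.5 mM range. Its adjusted p was 0.0806, and 0.0396 with the replicate block. TIPARP was higher by 0.70 at 12 h (adjusted p = 0.00241), 0.46 at 24 h (0.0448) and 0.75 at 72 h (8.3e-04). At 24 h the TIPARP arrays overlapped, and the call was lost without 10 mM 24 h replicate 1 (0.255) or 0.5 mM 24 h replicate 1 (0.222) or 2 (0.166), among others.

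At 48 h CYP1B1 was called higher at 10 mM than at 0.5 mM, by 0.27 log2 units (adjusted p = 0.0147). Its 0.5 mM arrays read 2.01 to 2.08 and its 10 mM arrays 2.14 to 2.48, both inside the range of the bacterial control rows. The call was lost without 10 mM replicate 2 (difference 0.18, adjusted p = 0.143), and when only the arrays of 48 h were fitted (adjusted p = 0.123). ARNT was lower at 10 mM by 0.21 at 48 h, with 3.53 to 3.70 against 3.79 to 3.94 and an adjusted p of 0.0599, or 0.0408 with the replicate block. One of the 0.5 mM arrays of that time, replicate 2, is an array with a wide actin 3′ to 5′ difference, and without it the difference was 0.25 for CYP1B1 (adjusted p = 0.0474) and -0.23 for ARNT (0.0749).

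The time courses were compared next, within each treatment and between the dose effects. CYP1A1 was low in DMSO and 0.5 mM APAP at each time and rose at 10 mM from 48 to 72 h. AHR rose from 12 to 72 h in all 3 treatments, and its 10 mM level was called above DMSO at 12 and 24 h but not at 48 and 72 h. The courses of the 2 genes were not tested against each other.

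CYP1A1 at 10 mM had means of 3.40 ± 0.66, 4.14 ± 0.56, 3.62 ± 0.26 and 6.91 ± 0.89 at 12, 24, 48 and 72 h (SD, n = 3). The 12, 24 and 48 h arrays overlapped in part, and the 3 arrays of 72 h stood above all others in the series. From 48 to 72 h the level rose by 3.29 log2 units (95% interval 2.61 to 3.97), or 9.76-fold, with an adjusted p of 5.8e-07. This was the largest rise of any of the 18919 genes in that step, and the next largest was 1.76. Among the 7 genes it was the 1 called in that step, in which 0.254% of all genes were called higher. The steps from 12 to 24 h (0.74, adjusted p = 0.176) and from 24 to 48 h (-0.52, adjusted p = 0.464) did not pass.

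In DMSO the CYP1A1 means were 2.46 ± 0.11, 2.32 ± 0.06, 2.65 ± 0.12 and 3.09 ± 0.79 (SD, n = 3), and at 0.5 mM they were 2.59 ± 0.23, 2.21 ± 0.15, 2.57 ± 0.08 and 2.67 ± 0.15. No change with time was called in either (moderated F test, adjusted p = 0.289 and 0.699). The dose effect of 10 mM on CYP1A1 differed between times (F = 16.4, adjusted p = 4.1e-05), as it did for AHR, and 21.3% of all genes were called in this test. From 48 to 72 h that effect grew by 2.84 log2 units (95% interval 1.88 to 3.81, adjusted p = 0.00269), the largest growth of all 18919 genes, with the next at 2.71. CYP1A1 was the 1 member called in that step, where 0.502% of all genes were called higher. Of its 12 group means, the 8 lowest were those of DMSO and 0.5 mM. Neighbours among the lowest 10 means were closer than the pooled SD of 0.44, and the largest step, 2.77, lay between 10 mM at 24 h and 10 mM at 72 h.

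AHR rose with time in the control. Its DMSO means were 8.77 ± 0.23, 9.38 ± 0.17, 9.76 ± 0.39 and 10.24 ± 0.25 at 12, 24, 48 and 72 h (SD, n = 3). From 12 to 72 h that is 1.47 log2 units (95% interval 1.16 to 1.79, adjusted p = 5.1e-09), with all later arrays above the earlier ones, as for 21.8% of genes. At 0.5 mM the means were 8.70 ± 0.07, 9.23 ± 0.08, 9.36 ± 0.26 and 10.10 ± 0.10, a rise of 1.40 (adjusted p = 1.5e-08). At 10 mM they were 9.76 ± 0.03, 10.12 ± 0.16, 10.13 ± 0.19 and 10.51 ± 0.14, a rise of 0.75 (adjusted p = 4.7e-04). AHR at 10 mM and 12 h had thus the same mean, to 2 decimals, as DMSO at 48 h.

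Between 12 and 72 h, 2 of the 7 genes were called higher in DMSO (AHR and AHRR), 1 at 0.5 mM (AHR) and 2 at 10 mM (AHR and CYP1A1), where 15.6%, 14.6% and 10.7% of all genes were. Tested over all 4 times, AHR was called in DMSO (adjusted p = 4.1e-08), at 0.5 mM (1.8e-07) and at 10 mM (0.00383), and CYP1A1 at 10 mM (4.0e-09). The same test called 30.7%, 33.9% and 25.3% of all genes in these treatments. No member was called in the test of the 0.5 mM effect between times, in which 0.0846% of all genes were. From 12 to 72 h the effect of 10 mM on AHR fell by 0.72 log2 units (95% interval of the change -1.17 to -0.28, adjusted p = 0.0164), a step in which 9.83% of all genes had a called fall. Over all times its F was 4.66 with an adjusted p of 0.0432, and that call was lost without any one of 18 of the 36 arrays (adjusted p up to 0.131, without DMSO 12 h replicate 2). The change from 12 to 72 h was likewise not called without DMSO 12 h replicate 2 (0.0672), DMSO 72 h replicate 3 (0.0641) or 10 mM 72 h replicate 1 (0.052).

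In the order of its 12 group means, AHR ran from 8.70 at 0.5 mM and 12 h to 10.51 at 10 mM and 72 h. Of the 11 steps between neighbours 4 were larger than the pooled SD of 0.20, the largest being 0.46 between DMSO at 12 h and 0.5 mM at 24 h. Among single steps in time, AHR rose in DMSO from 12 to 24 h by 0.61 (adjusted p = 0.0196), where 1.91% of all genes were called higher. It rose at 0.5 mM from 48 to 72 h by 0.74 (adjusted p = 9.6e-04), where 5.55% were. The DMSO step was not called when replicate 2 of 12 h was left out (adjusted p = 0.176) or replicate 1 of 24 h (0.136). In DMSO the step from 48 to 72 h was 0.48 with an adjusted p of 0.086, and 0.0446 with the replicate block. Without DMSO 48 h replicate 1 it was 0.69 (adjusted p = 0.00228). At 0.5 mM the step from 12 to 24 h was 0.53 with an adjusted p of 0.0499, at the threshold, where 1.31% of all genes were called higher; without any one of the 6 arrays of that step it was not called (adjusted p from 0.0808 to 0.224).

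**Figure D3:**
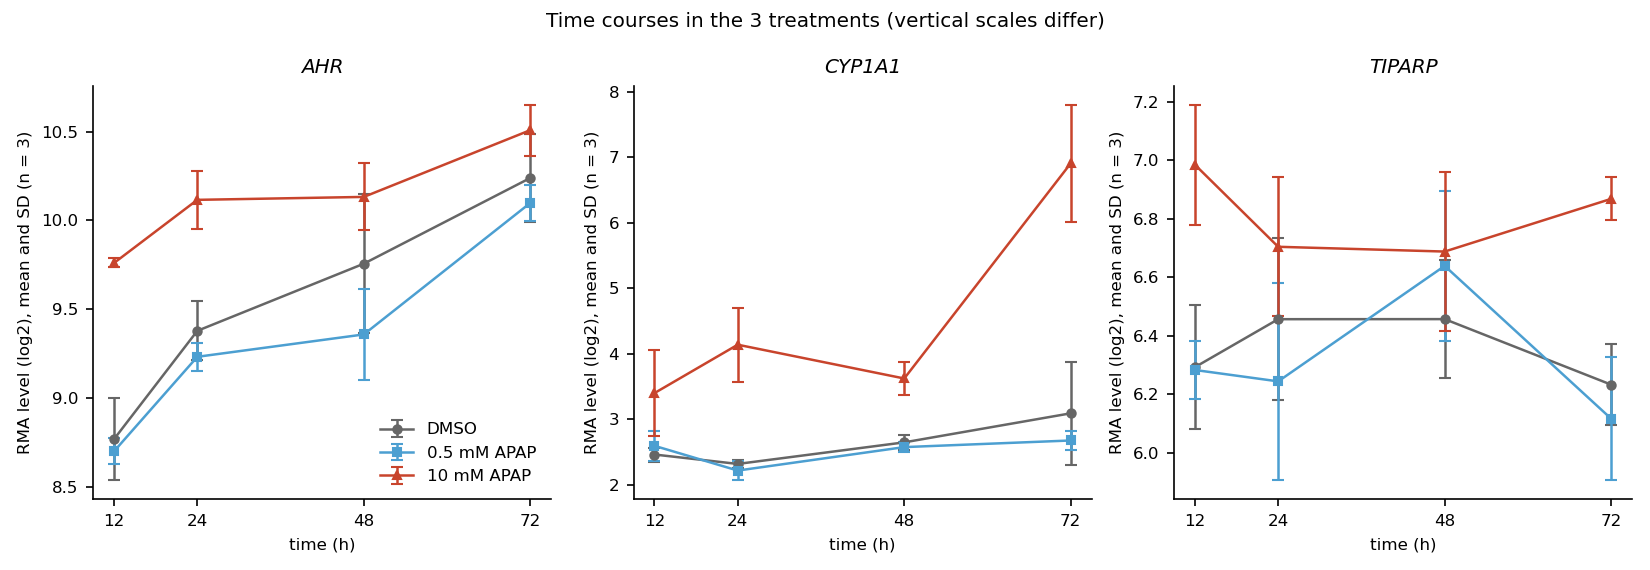
Mean RMA level (log2) with SD over 3 arrays against time (h) for CYP1A1, AHR and TIPARP in the 3 treatments; vertical scales differ. CYP1A1 at 10 mM leaves the other treatments most at 72 h (6.91 against 3.09 in DMSO), AHR rises in all 3 treatments from a higher start at 10 mM (9.76 at 12 h), and TIPARP at 10 mM lies above DMSO at each time with the largest gaps at 12 and 72 h.

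TIPARP was not called in the tests over all 4 times (adjusted p from 0.0829 to 0.685). Its DMSO means were 6.29 ± 0.21, 6.46 ± 0.28, 6.46 ± 0.20 and 6.23 ± 0.14 (SD, n = 3), and its 10 mM means were 6.98 ± 0.21, 6.70 ± 0.24, 6.69 ± 0.27 and 6.87 ± 0.07. At 0.5 mM it fell by 0.52 log2 units from 48 to 72 h (adjusted p = 0.0393), where 7.95% of all genes were called lower. Its arrays at the 2 times overlapped, and without 0.5 mM 48 h replicate 1 or 3, or 72 h replicate 2 or 3, the adjusted p was 0.131 to 0.155. The 4 highest of its 12 group means were those of 10 mM, but no step between neighbours was larger than the pooled SD of 0.22.

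AHRR rose in DMSO from 12 to 72 h by 0.45 log2 units (adjusted p = 0.0188). Its arrays read 2.43, 2.34 and 2.06 at 12 h and 2.54, 2.57 and 3.07 at 72 h, so 1 low and 1 high array carry much of it. Without DMSO 12 h replicate 3 the rise was 0.34 (adjusted p = 0.126), and without DMSO 72 h replicate 3 it was 0.28 (adjusted p = 0.2). CYP1A2, CYP1B1 and ARNT were called in 0 of the comparisons between times, singly or over all 4.

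**Figure D4:**
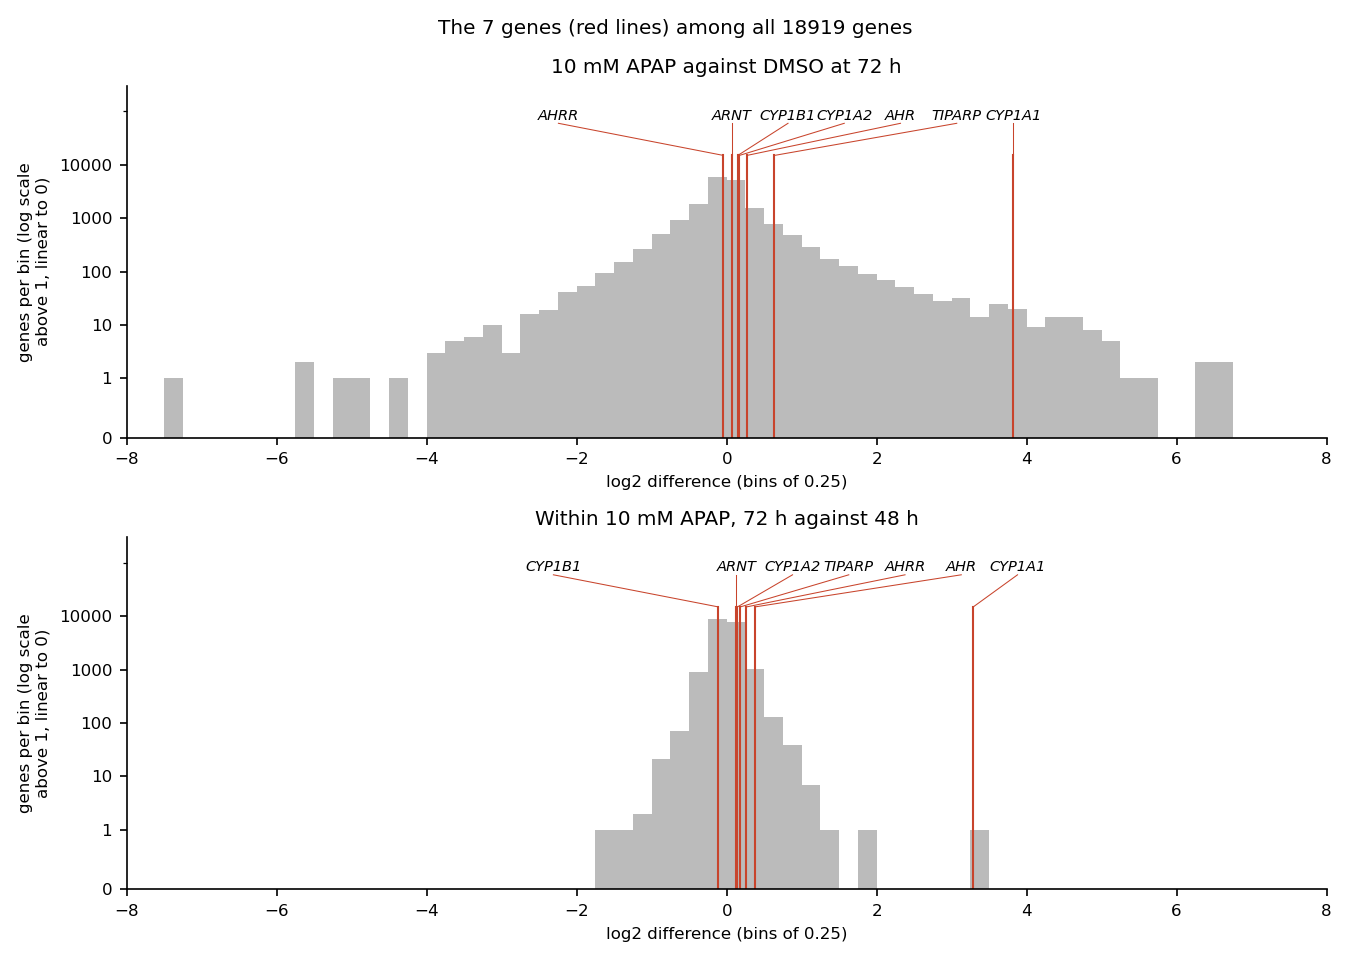
Number of genes per bin of 0.25 log2 units, on an axis that is logarithmic above 1, for 10 mM APAP against DMSO at 72 h (top) and for 72 h against 48 h within 10 mM APAP (bottom), with red lines at the 7 genes. CYP1A1 lies at 3.82 in the top panel with 69 genes beyond it, and at 3.29 in the bottom panel beyond every other gene. The other members lie at smaller differences, with TIPARP, which was called higher, at 0.64 in the top panel.

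The genes whose 12 group means ran most like those of CYP1A1 and AHR were sought among 4636 genes whose group means span at least 1 log2 unit. For CYP1A1 the 5 most alike had Pearson r of 0.90 to 0.93, led by ENSG00000197943, which was 1.17 log2 units higher at 10 mM than in DMSO at 72 h. Ranking by Spearman rho gave 5 other genes, with 0 shared. For AHR the 5 most alike had r of 0.96 to 0.97, led by ENSG00000120738, and 2 of the 5 were also among the 5 by Spearman rho. These correlations are descriptions over 12 group means that share cells, medium and time. Among the members themselves, r over the 12 means was 0.66 between CYP1A1 and AHR, 0.63 between CYP1A1 and TIPARP, 0.40 between CYP1A1 and CYP1A2, and 0.77 between AHR and AHRR. AHRR and CYP1A2 read near background, and their group means span only 0.45 and 0.25 log2 units. The highest CYP1A1 mean, 10 mM at 72 h, stands apart at 6.91 against 4.14 for the next, so its group weighs heavily in the CYP1A1 values.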

How the data were processed

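RNA from 36 HepG2 cultures was measured on Affymetrix arrays from 250 ng of total RNA with an RNA integrity number above 8, per the labels' protocols. The authors deposited log2 expression levels made with RMA, per the submitters' processing notes; for its version, the probe sets and the annotation the sources used here give nothing. The table held 18919 genes and 62 control rows with no missing value, and a shift shared by most genes would not be seen after RMA. The number of arrays limits the precision, and p-values measure the spread between these arrays.

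The 7 genes were found by the identifiers of the selection rule. The members and lists were chosen with earlier results of these data known. The gene rows carry identifiers that matched 0 of the 59792 rows of the reference used here (GRCh38.p14), so no other gene was named by symbol, and the planned lists of pathway genes and of hepatocyte and other cell type markers were not analysed here; the cell type rests on the labels. By rule, every member is described, and the genes most like CYP1A1 and AHR are given by identifier.

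In limma 3.58.1 (R 4.3.3), lmFit and eBayes were run on all genes and arrays together, giving each group its own mean (24 residual degrees of freedom) without a replicate block, and a Benjamini-Hochberg adjusted p under 0.05 was called. Differences between times were tested by contrasts and moderated F tests. The procedure was run on simulated data whose noise was drawn independently for each gene and array. Deviations shared by same-numbered arrays were not simulated, so that run cannot speak to them. Alternatives were the arrays of 1 time alone, a replicate block, median centring and a second quantile normalization. Further ones were genes with a group mean of at least 4, trend and robust variance priors, array weights and each array left out. After seeing the data, fits without the 6 arrays with weak spike-ins and without 3 other chosen arrays were added. The 3 were the 2 arrays with a wide actin difference and DMSO 48 h replicate 1, which was picked by name and is also among the 6. Pairing by replicate number was checked by correlating deviations from group means over genes: in 7 of 12 comparisons between doses all 3 pairs were above 0.1, and there the blocked value is given where it changes a call. Blocked values are also given for 2 results beyond that check. They are the 0.5 mM mean over the 4 times, where 12 and 24 h fell short of it, and a DMSO step between times, which it did not cover.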

Additional observations from a re-analysis of the deposited data

Results flagged for a closer look

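The effect of 10 mM APAP on CYP1A1 differed between the 4 times, with an adjusted p of 4.1e-05 in the moderated F test. The effect was 0.94, 1.82, 0.98 and 3.82 log2 units at 12, 24, 48 and 72 h. All 3 arrays at 10 mM were above the DMSO arrays at each time.

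The effect of 10 mM APAP on AHR also differed between times, with an adjusted p of 0.0432. It was 0.99, 0.74, 0.38 and 0.27 log2 units. At 72 h the effect was smaller than at 12 h for AHR and larger for CYP1A1, but from 24 to 48 h both effects became smaller. The courses of AHR and CYP1A1 were not tested against each other. The 0.0432 lies near the threshold, and the call was lost without many single arrays, such as DMSO 12 h replicate 2 (adjusted p = 0.131).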

How the results depend on the processing

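Over all comparisons of doses and times, 41 results on single members were called, and 1727 of their 1821 values under the alternatives gave the same call. For the 204 results not called, 8867 of 8903 values did, and 188 changed sign; 0 called values reversed. For the dose comparisons and the tests over all 4 times alone, the same call was given by 1066 of 1118 values of 25 called results and 4109 of 4134 values of 94 others. Most of these alternatives left out a single array. For a comparison of 2 groups most such arrays lie outside it and leave its difference unchanged. Much of this agreement was thus fixed in advance, and the losses given with the results are more telling. Median centring and a second quantile normalization moved the median difference of all genes by less than 0.1. The count of members called at 10 mM against DMSO at 48 h was 1, and 2 with the replicate block or with only genes of a group mean of at least 4 (CYP1A1 and AHR both times), and 1 to 2 when arrays were left out singly. At 0.5 mM against DMSO at 48 h it was 0, and 1 (AHR) with the replicate block, and 0 to 1 when arrays were left out singly. At 10 mM against 0.5 mM at 48 h it was 3, and 1 to 4 without single arrays (1 without 10 mM replicate 2, with AHR left). For the effect of 10 mM between times it was 2, and 1 (CYP1A1) with median centring or without the arrays with weak spike-ins, and 1 to 2 without single arrays. For 0.5 mM between times it was 1, and 2 (AHR and TIPARP) with array weights, and 1 to 2 without single arrays. For DMSO between times it was 1, and 2 (AHR and AHRR) with array weights. The filter left fewer genes in the fit (8999, with 3 members). The cause of these changes was not tested, for the filter or for the other alternatives.

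The replicate block changed no call beside those given here and with the results. All genes called at 0.5 mM against DMSO moved by over 1.5 times: from 1 to between 0 and 37 at 12 h, from 3 to between 0 and 53 at 24 h, from 652 to between 5 and 1034 at 48 h, from 144 to between 33 and 299 at 72 h, and from 16 to between 2 and 137 for its effect between times. Without the arrays with weak spike-ins CYP1A1 lost its call at 12 h (adjusted p = 0.1) and at 48 h (0.112). AHR was called at 48 h in that fit (0.0131), so the called member changed while the count did not. The same change occurred with array weights (AHR adjusted p = 0.00237). It also occurred without 3 arrays (0.00155), the 2 with a wide actin difference and DMSO 48 h replicate 1. That DMSO array was picked by name, not by a limit, and other arrays with weak spike-ins were kept in that fit. Its AHR level of 10.18 was the highest of its group. The change occurred too without 10 mM 48 h replicate 2 (0.0301) or without DMSO 48 h replicate 1 alone (0.00297). The levels of CYP1A2, CYP1B1 and AHRR, and of CYP1A1 without 10 mM APAP, lie near background, which limits what can be seen there.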

Other observations

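At 10 mM APAP, CYP1A1 was highest in replicate 2 at all 4 times and lowest in replicate 3 at 12, 48 and 72 h. Over all genes, 517 (2.73%) were highest in replicate 2 at all 4 times of that treatment. AHR was highest in replicate 3 at 3 of the 4 times. What a replicate number stands for is not stated in the labels.

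DMSO 72 h replicate 1 had a CYP1A1 level of 3.99, against 2.73 and 2.55 in the other arrays of its group, while its AHR level of 9.99 was the lowest of that group.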
